A study of Mus musculus with 6 samples.

Results

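The aldehyde oxidases and xanthine dehydrogenase are the molybdenum hydroxylases of the mouse, and their transcripts were followed here in pancreatic stellate cells (PSCs), the fibroblast precursors of the pancreas. The group holds 9 of the 55426 features counted, namely the aldehyde oxidase genes Aox1, Aox2, Aox3 and Aox4, xanthine dehydrogenase (Xdh), and Mocos, Mocs1, Mocs2 and Gphn, which make and finish the cofactor that these enzymes need. All 9 were found by gene identifier. The family was chosen by the measured rise of Aox4 at 1% O2 in these same samples, so the difference between the oxygen levels in the 9 genes is a description. Where the thresholds of the all-gene fit are used to count them, the count is no independent evidence. The PSCs were primary cells from wild-type C57BL/6 mice, embedded in Matrigel and separated by a permeable membrane from organoids of mT3, a pancreatic ductal adenocarcinoma (PDAC) cell line derived from a genetically engineered mouse of the same strain. After 48 h, RNA was taken from 3 normoxic samples kept at 21% O2 and from 3 hypoxic samples kept at 1% O2, and the organoids were present in all 6 samples. The cells were unsorted low-passage lines of adult mice, and the labels do not say whether the 3 samples of a condition came from separate mice, so the spread between them may be technical.

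Aldehyde oxidases hydroxylate aldehydes such as retinaldehyde and many nitrogen heterocycles, and N-methylnicotinamide and a large number of drugs are among their known substrates. Xanthine dehydrogenase carries out late steps of purine breakdown, from hypoxanthine to xanthine and on to uric acid. It can be converted to an oxidase that passes electrons to oxygen. Each of these proteins holds iron-sulfur clusters, FAD and a molybdenum cofactor. The cofactor is built by Mocs1 and Mocs2, receives its molybdenum from gephyrin (Gphn), and must be sulfurated by Mocos before the oxidases and the dehydrogenase can work. Mice carry a row of aldehyde oxidase genes that arose by duplication, and in mouse tissues Aox1 and Aox3 are best known from liver, Aox4 from the Harderian gland and skin, and Aox2 from the nasal mucosa.

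On chromosome 1 (GRCm38, GENCODE M21) the aldehyde oxidase genes lie head to tail on the plus strand in the order Aox1, Aox3, Aox4 and Aox2. The cluster spans chr1:58029931-58380259, which is 350.3 kb, with gaps of 6.72, 9.70 and 9.73 kb between neighbours. Aox1 (ENSMUSG00000063558) starts at 58029931, Aox3 (ENSMUSG00000064294) at 58113130, Aox4 (ENSMUSG00000038242) at 58210397 and Aox2 (ENSMUSG00000079554) at 58278326. Because neighbours differed in level, the sequence before each start is shown from the RefSeq windows on GRCm38.p6, cut at the earliest annotated start. For Aox1 this was a RefSeq start that lies before 58029931, so the part shown ends at 58029808. Capitals mark every match, on either strand, to ACGTG or GCGTG (cores of the hypoxia response element, the site of hypoxia-inducible factors), to TGACNNNGC (core of the antioxidant response element) or to TGACTCA (an AP-1 site, added to the search after the sequences were seen).
Aox1, chr1:58029719-58029808, plus strand: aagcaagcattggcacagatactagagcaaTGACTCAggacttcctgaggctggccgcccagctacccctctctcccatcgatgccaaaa
Aox3, chr1:58112886-58113129, plus strand: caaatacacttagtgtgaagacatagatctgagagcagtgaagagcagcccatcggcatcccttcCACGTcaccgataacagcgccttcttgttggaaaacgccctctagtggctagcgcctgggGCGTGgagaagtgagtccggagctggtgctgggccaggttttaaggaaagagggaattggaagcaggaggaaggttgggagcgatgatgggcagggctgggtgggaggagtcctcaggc
Aox4, chr1:58210147-58210396, plus strand: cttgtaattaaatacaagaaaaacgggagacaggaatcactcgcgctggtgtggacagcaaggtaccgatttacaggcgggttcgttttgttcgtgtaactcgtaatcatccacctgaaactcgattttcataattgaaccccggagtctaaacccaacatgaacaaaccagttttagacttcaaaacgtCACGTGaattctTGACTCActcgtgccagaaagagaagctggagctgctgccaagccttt
Aox2, chr1:58278076-58278325, plus strand: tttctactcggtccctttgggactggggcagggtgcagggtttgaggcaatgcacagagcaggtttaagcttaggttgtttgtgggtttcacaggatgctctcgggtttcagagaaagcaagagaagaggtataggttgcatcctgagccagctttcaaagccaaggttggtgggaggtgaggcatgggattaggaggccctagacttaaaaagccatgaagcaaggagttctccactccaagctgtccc
The Aox4 sequence held the palindrome CACGTG, which reads as ACGTG on the plus strand from position -59 and on the minus strand from -60, counted from the RefSeq start. A TGACTCA followed it at -48. The Aox3 window had ACGTG on the minus strand at -185 and GCGTG on the plus strand at -125. In Aox1, TGACTCA (chr1:58029749-58029755) stood at -220 and GCGTG on the minus strand (chr1:58029832-58029836) at -137. Both are counted from the start on which the window is set. The part shown ends before an earlier annotated start, so TGACTCA lies nearer to that start and GCGTG lies beyond the part shown. These 2 positions can therefore not be set beside those in Aox4. The Aox2 window had no match to the 4 motifs. Over 32544 distinct windows of 300 bases, 19.7% held ACGTG, 32.6% GCGTG, 12.4% TGACNNNGC and 5.19% TGACTCA, so that matches of the first kinds are common. A match is a description of letters, and factor binding was not measured. Of the 9 genes, 7 had a window, and Xdh and Mocos did not. The windows of the cofactor genes also held matches, namely 1 ACGTG and 2 GCGTG in Mocs1, 3 GCGTG, 1 TGACNNNGC and 1 TGACTCA in Mocs2, and 1 GCGTG in Gphn, genes that did not pass the thresholds for a difference between the oxygen levels.

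Since the genes are duplicates, the likeness of their transcripts bears on how well reads can be assigned to each. In an alignment of the coding sequences, Aox4 shared 66.8% of bases with Aox3, 66.8% with Aox2 and 63.3% with Aox1, and 56.2% with Xdh. The longest identical run between 2 of the whole transcripts was 46 bases, between Aox4 and Aox2, against 28 bases for Aox4 and Aox1 and 22 for Aox4 and Aox3. No run of 50 bases was shared in any of the pairs. The stretch of 60 coding bases in which the genes are most alike is shown with the bases unlike Aox4 in capitals.
Aox4: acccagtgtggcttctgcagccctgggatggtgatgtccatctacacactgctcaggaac
Aox2: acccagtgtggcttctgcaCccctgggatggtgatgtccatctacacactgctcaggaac
Aox1: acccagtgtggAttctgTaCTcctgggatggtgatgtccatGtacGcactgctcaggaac
Aox3: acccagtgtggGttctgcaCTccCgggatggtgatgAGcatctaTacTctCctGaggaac
These stretches begin at coding base 343 in Aox4, 346 in Aox2, 331 in Aox1 and 343 in Aox3, and code for part of the iron-sulfur domain near the start of the protein. Aox2 differed from Aox4 at 1 of the 60 bases, Aox1 at 6 and Aox3 at 10. The coding sequences were 4008 bases (Aox4), 4005 (Aox3), 3999 (Aox1), 4035 (Aox2) and 4005 (Xdh), in transcripts of 35 exons, or 36 for Aox2 and Xdh.

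Aox4 had next to no transcript at 21% O2 and was plainly present in every sample at 1% O2. The normoxic samples held 6, 2 and 5 counts and the hypoxic samples 597, 767 and 732, in libraries of 24749601 to 31925054 counts. As CPM, the count divided by the library size after TMM scaling, this was 0.231, 0.0759 and 0.203 at 21% O2 and 23.4, 24.5 and 23.0 at 1% O2. The hypoxic samples lay close together and far above the normoxic ones. The normoxic values sat near the level of 3 counts, taken as the least that can be told from none, which is 0.0943 to 0.122 CPM in these libraries. The mean went from 0.170 ± 0.0826 (SD, n = 3) to 23.6 ± 0.755 CPM, which is 7.09 on the log2 scale (SE 0.19) or 136-fold. Summed over the samples, 13 counts stood against 2096, and the ratio per library size was 140 with a 95% counting interval of 81.7 to 263, which covers counting error only.

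Aox3, the neighbour upstream of Aox4, was present at a low level in both conditions. Its CPM were 2.77, 4.97 and 3.12 at 21% O2 and 7.07, 12.8 and 10.3 at 1% O2, so the conditions did not overlap. Means were 3.62 ± 1.18 and 10.1 ± 2.86 CPM (SD, n = 3), a log2 fold change of 1.48 (SE 0.26) or 2.78-fold. The spread was wide, and within each condition replicate 2 was the highest.

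Aox1, the first gene of the row, was the most abundant aldehyde oxidase at both oxygen levels. It had 29.9, 42.9 and 34.1 CPM at 21% O2 and 46.7, 52.7 and 55.7 CPM at 1% O2. The conditions did not overlap, but the highest normoxic and the lowest hypoxic value were close. From 35.6 ± 6.62 to 51.7 ± 4.56 CPM (SD, n = 3), the log2 fold change was 0.54 (SE 0.12), or 1.45-fold, just inside the 1.5-fold limit used for calls. Leaving out normoxic replicate 2 moved it to 0.69, past that limit, and it also passed without hypoxic replicate 1.

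Aox2, the last gene of the row and the downstream neighbour of Aox4, was at the limit of detection. It had 0, 2 and 0 counts at 21% O2 and 3, 7 and 6 counts at 1% O2, too few for the filter on low counts, so it was not tested. The summed counts were 2 and 16, a ratio of 6.95 with a counting interval of 1.63 to 62.3. Without the filter its log2 fold change was 2.57 (SE 1.05). At this depth its level cannot be placed more closely.

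The large difference of Aox4 was thus not found at the same size in its neighbours, whose values were also higher at 1% O2 but by 2.78-fold in Aox3 and 1.45-fold in Aox1, with Aox2 near the floor. These differences are not independent of one another, since all come from the same 6 samples.

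**Figure D1:**
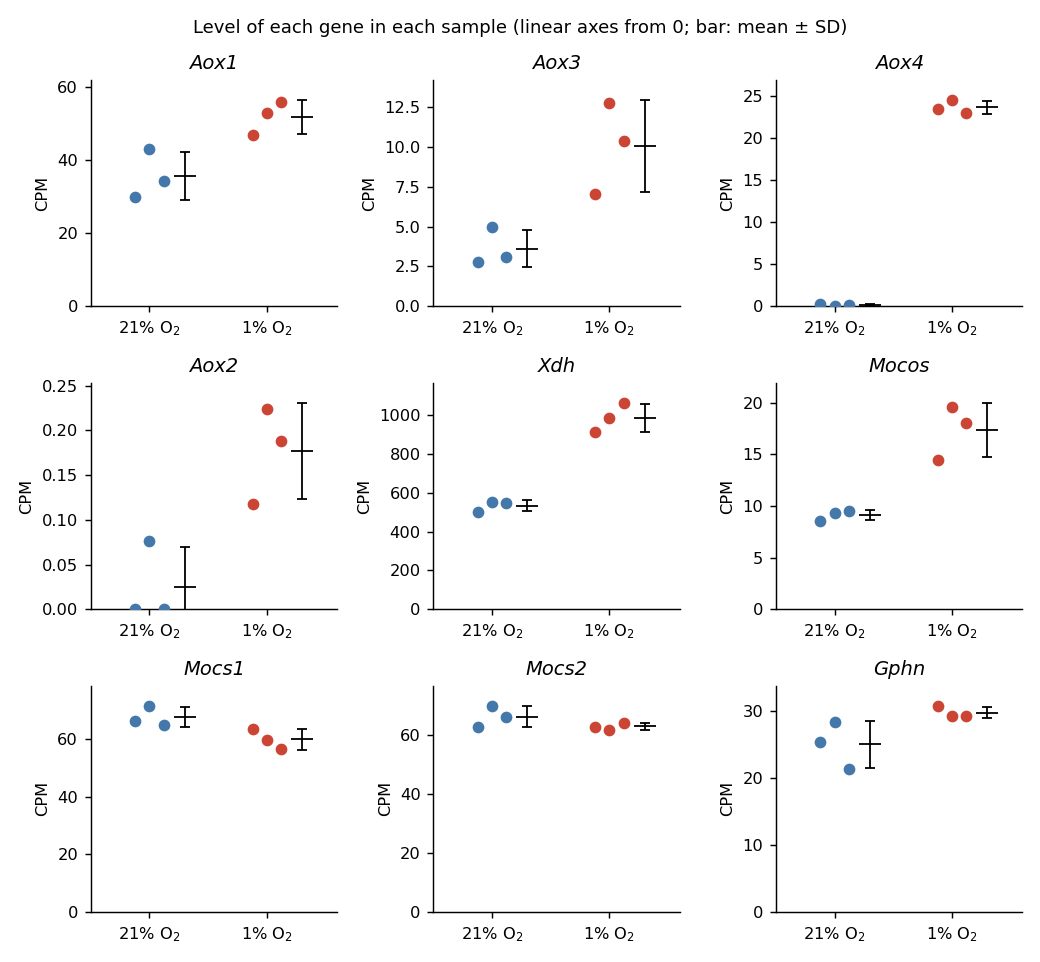
CPM of the 9 genes, 1 panel a gene with its own linear axis from 0; points are samples (blue 21% O2, red 1% O2) and bars the mean ± SD of 3. Aox4 goes from 0.170 to 23.6 CPM on average, Aox1, Aox3, Xdh and Mocos differ less and without overlap, Mocs2 overlaps, and the Aox2 panel reaches 0.223 CPM.

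Xanthine dehydrogenase was by far the most abundant of the 9 transcripts. Xdh (ENSMUSG00000024066, chr17:73883895-73950196, minus strand) had 499, 550 and 546 CPM at 21% O2 and 912, 982 and 1060 CPM at 1% O2. The samples of each condition lay close together and the conditions were well apart. Means were 532 ± 28.4 and 985 ± 73.9 CPM (SD, n = 3), a log2 fold change of 0.89 (SE 0.07) or 1.85-fold, and by its mean level Xdh stood at percentile 99.2 of the tested genes.

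Levels of different genes are compared per kb of the longest annotated coding transcript. On that scale Xdh went from 116 ± 6.17 to 214 ± 16.1 CPM per kb and the 4 aldehyde oxidases together from 8.88 ± 1.74 to 18.6 ± 1.58 (SD, n = 3). The ratio of Xdh to their sum was 13.3 ± 1.91 at 21% O2 and 11.5 ± 0.540 at 1% O2, and the ranges of the conditions overlapped. What the aldehyde oxidase transcript consisted of differed more. At 21% O2, Aox1 made up 91.2%, 89.7% and 91.5% of it, and at 1% O2 it made up 62.7%, 60.6% and 64.6%. Aox4 took 0.627%, 0.141% and 0.484% at 21% O2 and 28.0%, 25.1% and 23.7% at 1% O2. Aox3 held 8.72% ± 1.11 and 11.6% ± 2.50 (SD, n = 3), and its ranges overlapped. Aox2 was at most 0.197% in any sample. In the order of levels at 21% O2, Aox1 stood above Aox3 and Aox3 above Aox4, while at 1% O2 Aox4 (4.75 ± 0.152 CPM per kb) stood above Aox3 (2.18 ± 0.621) in each sample.

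**Figure D2:**
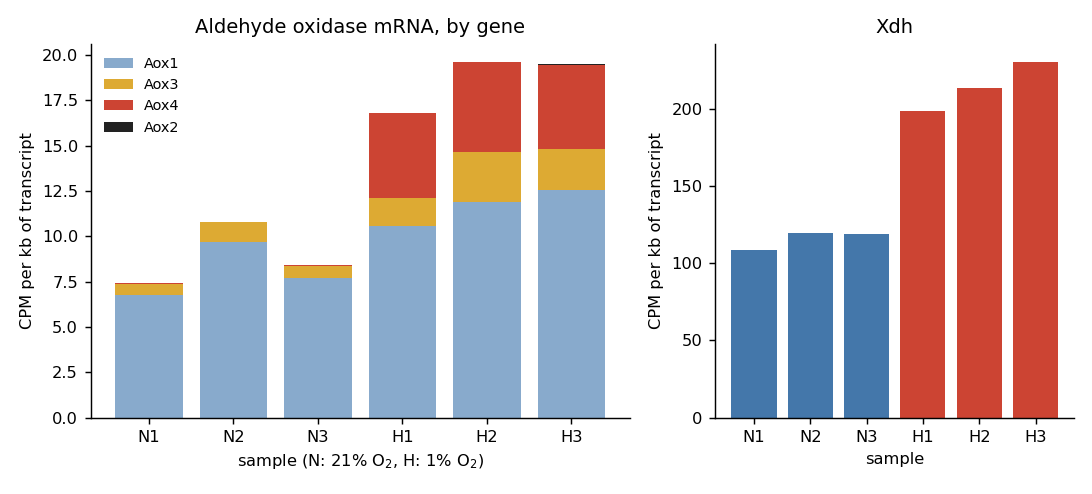
CPM per kb of transcript in each sample (N, 21% O2; H, 1% O2), stacked over the aldehyde oxidases on the left and for Xdh on the right; axes are linear from 0 and differ between panels. Aox4 is a red band of 23.7% to 28.0% of the stack in the hypoxic samples and cannot be seen in most normoxic ones.

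Of the genes of the cofactor, the one for the last step differed most. Mocos (ENSMUSG00000039616), the sulfurase that activates Aox and Xdh proteins, had 8.59, 9.37 and 9.49 CPM at 21% O2 and 14.5, 19.6 and 18.0 CPM at 1% O2. The hypoxic samples were all higher, and the lowest of them was replicate 1. Means were 9.15 ± 0.494 and 17.4 ± 2.602 CPM (SD, n = 3), a log2 fold change of 0.93 (SE 0.12) or 1.90-fold, close to that of Xdh.

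The genes for the earlier steps differed little. Mocs1 (ENSMUSG00000064120, chr17:49428362-49455435), whose products start the synthesis from GTP, had 66.3, 71.3 and 64.8 CPM at 21% O2 and 63.4, 59.7 and 56.3 CPM at 1% O2, a log2 fold change of -0.17 (SE 0.06). Its hypoxic samples were the lower ones, by a margin smaller than the spread within either condition. Mocs2 (ENSMUSG00000015536, chr13:114818236-114832275), which makes both subunits of molybdopterin synthase, had 62.8, 69.6 and 65.9 CPM at 21% O2 and 62.7, 61.6 and 64.1 CPM at 1% O2. These values overlapped, with a log2 fold change of -0.07 (SE 0.06). Gphn (ENSMUSG00000047454, chr12:78226379-78684772), which inserts the molybdenum and is also a scaffold of inhibitory synapses, had 25.4, 28.4 and 21.4 CPM at 21% O2 and 30.7, 29.2 and 29.3 CPM at 1% O2. The hypoxic values were higher by 0.25 (SE 0.10) on the log2 scale, and the gap between the conditions was small.

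In all, 8 of the 9 genes could be tested, and Aox3, Aox4, Xdh and Mocos were higher past a 1.5-fold change with an adjusted p under 0.05, while 0 were lower. Of all 16207 tested genes, 34.2% passed these thresholds, 18.9% as higher and 15.3% as lower. In 7 of the tested genes the conditions did not overlap, 6 with the hypoxic samples above and Mocs1 with them below, beside 34.9% and 34.0% of all tested genes and 68.9% in either direction. The contrast had been used to pick the family, so nothing is read from these counts. The median log2 fold change was 0.71 over the 8 genes and -0.00 over all tested genes.

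Aox4 and Gphn share exon sequence with a gene on the other strand. Aox4 shares 472 bases with Gm15759, an antisense transcript that starts within the Aox2 locus and ends within Aox4, and Gphn shares 147 bases with Gm48226. Gm15759 had 0 counts in each normoxic sample and 8, 9 and 13 in the hypoxic samples, too few for the filter on low counts. Fitted without the filter it passed the thresholds (adjusted p = 2.52e-04 by edgeR), with a fold change that depends on the prior count. Whether strand was used in the counting is not given in the sources used here, so reads of the shared bases cannot be told apart. The other gene inside the cluster, the small nucleolar RNA gene Gm24548, had 0 counts in all 6 samples.

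Outside the aldehyde oxidases, the flanking genes held calls in both directions. Of the 10 nearest protein-coding genes on each side and the 2 further genes within the cluster, 17 were tested, 2 were higher, 4 were lower and 11 did not pass both thresholds. These 6 of 17 stand beside the 34.2% of all tested genes that were called, so the share is near the background. Their median log2 fold change was -0.37. Sgo2a, which protects centromeric cohesion and ends just before Aox1, fell from 5.25 ± 0.813 to 1.80 ± 0.470 CPM (log2 fold change -1.54, SE 0.22, adjusted p = 2.42e-04 by edgeR, n = 3). Kctd18, which overlaps it on the other strand, was 1.48-fold higher and did not pass the fold limit (log2 fold change 0.57, SE 0.09, adjusted p = 6.18e-04 by edgeR), and without strand the reads of their shared part cannot be told apart. On the far side, Bzw1, a regulator of translation initiation, went from 188 ± 8.30 to 159 ± 1.12 CPM, short of the fold limit (log2 fold change -0.24, adjusted p = 0.00329 by edgeR, n = 3). Clk1, the kinase of splicing factors that follows it, rose from 42.7 ± 4.06 to 170 ± 7.57 CPM (log2 fold change 1.99, SE 0.08, adjusted p = 1.04e-07 by edgeR, n = 3).

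Further out, Spats2l rose by 1.18 on the log2 scale (SE 0.09, adjusted p = 7.34e-06 by edgeR). Plcl1, an inactive phospholipase C-like protein, fell by 1.02 (adjusted p = 2.4e-04), 1700066M21Rik by 0.70 (adjusted p = 0.00155) and Ndufb3, a subunit of respiratory complex I, by 0.75 (adjusted p = 2.07e-05), all on the log2 scale by edgeR. Among the tested genes that missed a threshold were Tyw5 (log2 fold change 0.26), Maip1 (-0.00), Ppil3 (-0.37), Nif3l1 (-0.38), Orc2 (-0.40), Fam126b (0.29), Cflar (0.17) and Casp8 (-0.52), besides Kctd18 and Bzw1. Boll and Hsfy2 had 0 counts, and Als2cr12 had 3 counts in 1 normoxic sample and 0 in the others.

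**Figure D3:**
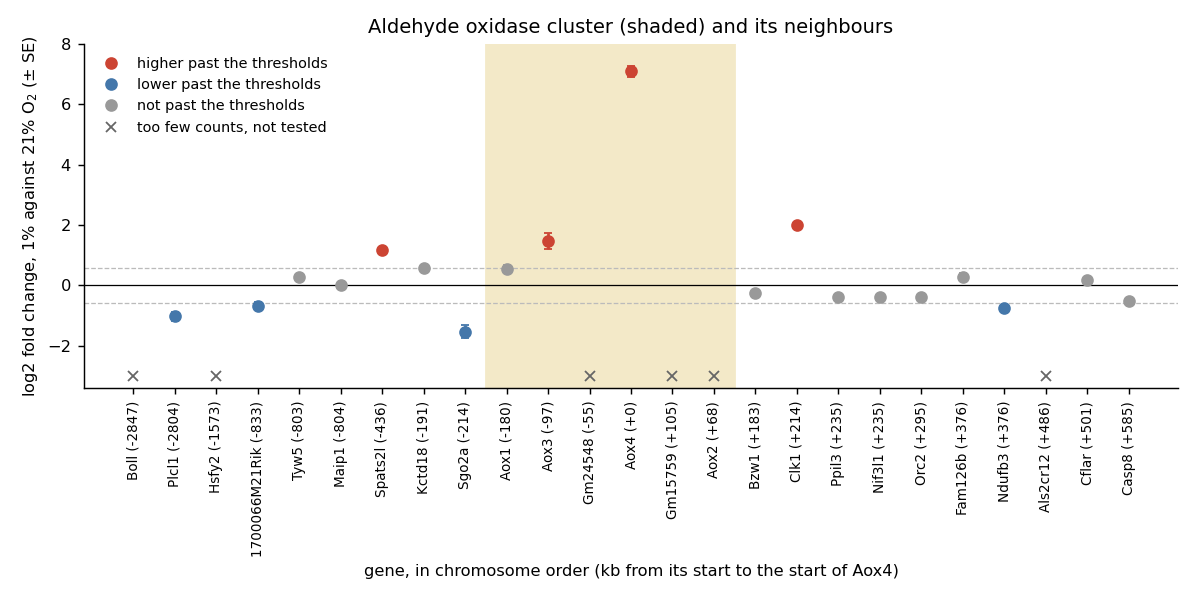
Log2 fold change (1% against 21% O2, ± SE) of the genes named in the text, in chromosome order, with the distance of its start from that of Aox4 in kb; shading marks the cluster, dashed lines the 1.5-fold limits, and crosses genes with too few counts. Aox4 at 7.09 stands far above Aox3 at 1.48 and Aox1 at 0.54, and the genes outside lie between -1.54 and 1.99.

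The hypoxic treatment could be read from the known targets of hypoxia-inducible factors (HIF), of which 14 of 15 rose past the thresholds and 0 fell, with a median log2 fold change of 1.98. Car9, a carbonic anhydrase, rose by 5.13 (SE 0.11, adjusted p = 1.01e-08 by edgeR) and Ndrg1 by 3.79 (SE 0.13, adjusted p = 7.95e-08). Egln3, a prolyl hydroxylase that marks HIF for breakdown, rose by 3.61 (SE 0.10, adjusted p = 3.21e-08 by edgeR) and Adm, adrenomedullin, by 2.14 (SE 0.11, adjusted p = 4.82e-07), while Pfkfb4 did not pass (0.06, adjusted p = 0.56). On the same log2 scale the difference of Aox4 was larger than that of each gene in this list. The family was picked by this difference in the same samples, so nothing is read from the ranking. The size of the difference also rests on 13 summed normoxic counts of Aox4, with a counting interval of 81.7 to 263 for the ratio. The 7 lists of related genes in this report were chosen with results of these samples known, and each is set beside the 18.9% of tested genes that were higher and the 15.3% that were lower.

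The other enzymes that use the molybdenum cofactor or serve them did not rise. Of 7 such genes, 0 were higher and 2 were lower, with a median of -0.57 on the log2 scale. Marc1, an amidoxime reductase of the mitochondrial outer membrane, fell from 0.783 ± 0.484 to 0.106 ± 0.133 CPM, where few counts stand behind it (log2 fold change -2.77, SE 0.75, adjusted p = 0.00982 by edgeR, n = 3). Cyb5b, its electron donor, fell from 224 ± 19.3 to 103 ± 4.45 CPM (log2 fold change -1.12, SE 0.07, adjusted p = 2.02e-06 by edgeR, n = 3). Marc2 of the same list did not pass and had 67.3 ± 9.21 and 60.8 ± 1.85 CPM (SD, n = 3), with overlap. Suox, sulfite oxidase, went from 11.3 ± 0.867 to 7.65 ± 1.01 CPM and missed the fold limit (log2 fold change -0.57, SE 0.12, adjusted p = 0.00298 by edgeR, n = 3). The count was 1 to 5 under other settings, and it was 4 without normoxic replicate 3.

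Genes for assembling the iron-sulfur clusters, which the aldehyde oxidases and Xdh also carry, were mixed. Of 22, 3 were higher and 3 lower, and 10 more passed the adjusted p but not the fold limit, with a median log2 fold change of -0.18. Ndor1, an electron donor of the cytosolic pathway, rose by 1.06 (SE 0.08, adjusted p = 5.25e-06 by edgeR), with the caveat that 2 overlapping gene models carry its name. Bola3, which helps deliver clusters in mitochondria, fell by 0.85 on the log2 scale (SE 0.08, adjusted p = 2.79e-05). Iba57 also rose, by 0.75 (adjusted p = 2.44e-04), and Mms19 by 0.66, while Nfu1 fell by 0.63. Without normoxic replicate 3 the number that fell was 5.

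Around the reactions of Xdh, genes that lead purines toward hypoxanthine and xanthine differed in direction. Of 22 listed, 15 were tested, 3 rose and 2 fell, with a median of -0.20. Ampd3, AMP deaminase, rose from 45.3 ± 3.42 to 151 ± 7.19 CPM (log2 fold change 1.73, SE 0.07, adjusted p = 1.35e-07 by edgeR, n = 3). Pnp2, a purine nucleoside phosphorylase with a near copy in Pnp, rose by 1.29 (SE 0.15, adjusted p = 7.97e-05), and how reads were split between these copies was not tested. Adk, adenosine kinase, fell by 1.46 (SE 0.08, adjusted p = 8.28e-07 by edgeR), and Nt5c2, a nucleotidase, rose by 0.72 (adjusted p = 1.61e-05). Nt5e also fell, by 0.61 (adjusted p = 0.011), and the number that fell was 1 without normoxic replicate 2, hypoxic replicate 1 or hypoxic replicate 2. Other genes next to the reactions of Xdh did not pass the fold limit. Pnp, which also releases hypoxanthine, had a log2 fold change of -0.34 (SE 0.06, adjusted p = 0.00125 by edgeR). Gda, guanine deaminase, which makes xanthine, had 551 ± 27.3 and 413 ± 9.37 CPM (SD, n = 3), and Hprt, which salvages hypoxanthine, had 42.4 ± 4.26 and 39.4 ± 3.46. Uox, the urate oxidase that follows Xdh, had a mean of 0 CPM at 21% O2 and 0.021 at 1% O2, below the floor.

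The list for retinaldehyde, an aldehyde oxidase substrate that stellate cells are known for handling, held 16 tested genes of 18, of which 4 rose and 5 fell, with a median of 0.01. Cyp26b1, which breaks down retinoic acid, rose from 5.05 ± 1.38 to 51.9 ± 7.41 CPM (log2 fold change 3.37, SE 0.17, adjusted p = 6.36e-07 by edgeR, n = 3). Rdh10, which makes retinaldehyde from retinol, rose by 1.63 (SE 0.09, adjusted p = 7.79e-07). Among the aldehyde dehydrogenases of this list, Aldh1a1 fell by 2.16 on the log2 scale, from 27.3 ± 2.80 to 6.12 ± 0.204 CPM (adjusted p = 2.8e-07 by edgeR, n = 3). Aldh1a7, its near relative, fell from 16.3 ± 11.1 to 0.259 ± 0.146 CPM, a log2 fold change of -5.95 (SE 0.62, adjusted p = 4.12e-05 by edgeR, n = 3). The normoxic values of Aldh1a7 were 10.7, 29.0 and 9.09 CPM. How reads were split between it and Aldh1a1 was not tested. Aldh1a2 rose by 0.63 (SE 0.21, adjusted p = 0.0248), while Aldh1a3 did not pass and had 14.8 ± 3.57 and 14.4 ± 1.71 CPM (SD, n = 3). Dhrs3 also rose, by 0.60, and Crabp1, Rdh12 and Rdh11 fell by 1.08, 0.74 and 0.61 on the log2 scale. The number that rose was 2 without normoxic replicate 1 or hypoxic replicate 2, and the number that fell was 3 without normoxic replicate 2.

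Nnmt makes N-methylnicotinamide, another aldehyde oxidase substrate, and fell from 109 ± 13.3 to 49.2 ± 3.13 CPM (log2 fold change -1.15, SE 0.09, adjusted p = 6.94e-06 by edgeR, n = 3). In its list of 12 tested genes of 14, Nnmt was the single gene that fell, and the median was 0.13. Nadk2 (1.11), Nmnat3 (1.03), Nmnat2 (1.00) and Nampt (0.59), which serve NAD supply and phosphorylation, rose on the log2 scale. Nampt was just past the fold limit, at 1.51-fold. The number that rose was 3 without normoxic replicate 1, normoxic replicate 3 or hypoxic replicate 2. It was also 3 with upper-quartile scaling, with library totals only and without a filter on low counts. Of the targets of Nrf2, the factor of the antioxidant response, 20 of 22 were tested, 2 rose and 3 fell, with a median of 0.03. Slc7a11, the cystine transporter, rose by 1.88 (SE 0.18, adjusted p = 2.36e-05 by edgeR) and Srxn1 by 0.65 (adjusted p = 2.34e-04). G6pdx, the first enzyme of the pentose phosphate pathway, fell by 1.04 (SE 0.08, adjusted p = 8.25e-06) Me1 by 0.73 (adjusted p = 1.45e-04) and Gsta3 by 0.65 (adjusted p = 0.00126). Without hypoxic replicate 2 the number that rose was 1.

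**Figure D4:**
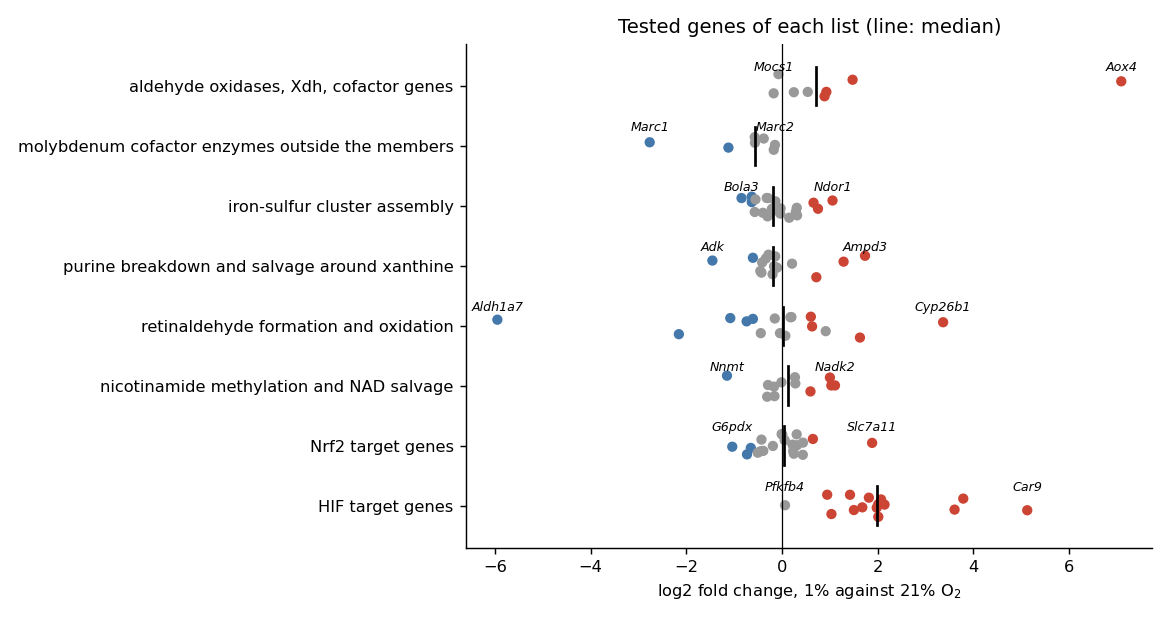
Log2 fold change (1% against 21% O2) of each tested gene, 1 row a list; red and blue mark genes higher and lower past both thresholds, gray the others, and black lines the medians. The 15 HIF targets lie to the right around 1.98. The row of 7 molybdenum cofactor enzymes and genes that serve them lies to the left around -0.57. Aox4, by whose rise the family was picked, is the rightmost point of its row and of the plot.

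The label of the cells was checked against markers of the cell types a pancreatic culture could hold. The 13 fibroblast and stellate cell markers summed to 28437 to 35637 CPM at 21% O2 and 30469 to 35314 at 1% O2, with 2 higher (Pdgfra and Pdpn, log2 fold changes of 0.82 and 0.99) and 2 lower (Lum, with -2.17, and Thy1, from a mean of 391 to 195 CPM) of 11 tested. The collagen genes Col1a1, Col1a2 and Col3a1 made up most of that sum. Gfap and Lrat, which define quiescent stellate cells, were at or under the floor and Des was at 16.6 ± 3.05 and 11.4 ± 0.942 CPM (SD, n = 3). The 13 epithelial markers summed to 3.23 to 5.40 CPM and 25.1 to 29.0 CPM, 7 of them were under the floor in all samples, Epcam and Cdh1 among them, and most of the difference was in Krt19, which rose by 4.94 (SE 0.19, adjusted p = 1.3e-07 by edgeR). The 10 endothelial markers summed to 21.9 to 28.5 and 32.6 to 44.5 CPM, with 3 higher (Tek, Vwf and Egfl7) and 2 lower (Kdr and Cldn5) of 9 tested, and the 10 acinar markers to 10.1 to 12.6 and 8.33 to 9.37 CPM, nearly all from Cela1, with 8 under the floor. The 15 leukocyte markers summed to 1022 to 1811 CPM at 21% O2 and 528 to 954 at 1% O2, with 8 of 13 tested lower and 0 higher (median -1.01), and Cd3e at 0. The 10 adipocyte markers summed to 5329 to 7082 and 3224 to 3537 CPM, with 9 of 9 tested lower (median -3.51). Fewer cells of a type and less RNA per cell cannot be told apart in such bulk samples.

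These last lists were lower at 1% O2, where Aox1, Aox3, Aox4, Xdh and Mocos were higher. Within the conditions the picture was different for Aox3. Relative to the normoxic mean, leukocyte markers stood at 0.720, 1.28 and 1.00 in the normoxic replicates and Aox3 at 0.765, 1.37 and 0.862. In the hypoxic replicates they stood at 0.372, 0.672 and 0.456, and Aox3 at 1.95, 3.52 and 2.85. Replicate 2 was thus the highest in both conditions for both, and 1 was the lowest. The summed adipocyte markers were also highest in replicate 2, at 0.960, 1.16 and 0.876 in the normoxic and 0.530, 0.581 and 0.534 in the hypoxic replicates. Their sum fell by less than the median adipocyte marker (-3.51 on the log2 scale). Aox1 was likewise highest in normoxic replicate 2, but in hypoxic replicate 3. Mocos was highest in hypoxic replicate 2 (1.58, 2.14 and 1.97), but in normoxic replicate 3 (0.938, 1.02 and 1.04). The part of leukocytes and adipocytes in the levels of Aox3 was not tested.

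**Figure D5:**
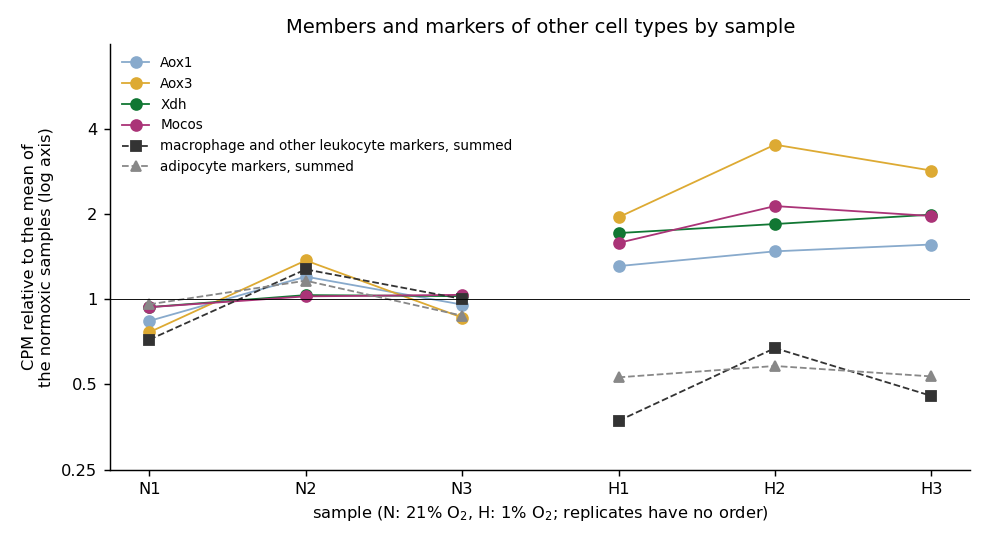
Level of 4 of the genes and summed CPM of 2 marker lists in each sample, relative to the mean of the normoxic samples (log axis; lines join samples of a condition for the eye and the replicates have no order). Leukocyte and adipocyte markers are at 0.372 to 0.672 of that mean in the hypoxic samples, and replicate 2 is highest within each condition for both lists and for Aox3, which is at 1.95 to 3.52 in the hypoxic samples.

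The genes with a pattern most like that of Aox4 were taken by the root mean square difference of log2 CPM centred on each gene's mean over the 6 samples. They were Fam19a2 (0.299), Sncb (0.346), Cpne6 (0.403), Tph1 (0.447) and Csf3 (0.451), where 0 would be an equal pattern. All 5 had at most 5 counts in any normoxic sample, and their means at 1% O2 were 16.1, 8.26, 6.04, 9.23 and 14.6 CPM. At such counts the normoxic side of the measure rests largely on the prior count of 2 added before taking logs. Their fitted log2 fold changes ran from 7.26 (Csf3) to 10.8 (Sncb), beside 7.09 for Aox4. They lie on other chromosomes than Aox4. Among the genes nearest to Xdh by this measure were Cep95 (0.0223), Rbm33 (0.0477), Srrm4 (0.0481) and Otud5 (0.0485). Cep95, the closest of them, had means of 7.41 ± 0.549 and 13.9 ± 1.21 CPM (SD, n = 3).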

How the data were processed

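RNA of 6 samples, 3 at 21% O2 and 3 at 1% O2, was grouped by the sample labels. The authors trimmed reads of poly(A) libraries with Cutadapt, mapped them to GRCm38 with STAR 2.6.1b and estimated gene counts with RSEM 1.3.1. The values they deposited are expected counts, not normalized between samples. These were rounded to whole numbers. The annotation release and the strand setting are not given in the sources used here. Names and positions came from GENCODE M21, which held 55154 of the 55426 identifiers. All columns of sample values were matched.

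edgeR 4.0.16 (R 4.3.3) was run on all features, with filterByExpr, which kept 16207 genes, TMM scaling, the quasi-likelihood F test and Benjamini-Hochberg adjustment. Calls needed a fold change beyond 1.5 and an adjusted p under 0.05. An exact permutation test of 3 samples against 3 cannot go below p = 0.1 (two-sided). Replicates of a condition differed by more than sampling noise (chi-square per degree of freedom 5.68 to 22.5). The fits were tested on simulated data. Coding sequences were aligned with MAFFT 7.526.

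The genes, lists and tests were chosen with earlier results of these data known. Genes named were the family, the flanking genes, up to 4 called genes a list with the largest change, list genes whose reactions touch the family, and the 5 nearest in pattern to Aox4 and to Xdh (log2 CPM with a prior count of 2). Pfkfb4, Marc2 and the marker genes fall outside this rule and were named after their values were seen. The same holds for the genes that complete a list's count of 5 or fewer (Nfu1, Nt5e, Dhrs3, Crabp1, Rdh11, Rdh12, Nampt, Srxn1). A few genes that the rule or a count covers are not reported here. Alternatives were other normalizations, filters and fold limits, DESeq2 1.42.0, limma-voom (limma 3.58.1), a replicate block and leaving out each replicate. Figures were drawn with matplotlib 3.10.9.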

Additional observations from a re-analysis of the deposited data

How the results depend on the processing

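The log2 fold changes of the 8 tested genes of the family kept their direction in all 14 alternative fits, from 6.73 to 7.38 for Aox4, 1.26 to 1.77 for Aox3, 0.42 to 0.69 for Aox1, 0.83 to 0.94 for Xdh and 0.83 to 1.04 for Mocos. Aox1 alone changed its call, passing without normoxic replicate 2 or hypoxic replicate 1. Other scalings moved the median of all genes by between -0.0233 and 0.00298 on the log2 scale, and the share of calls that were higher ran from 53.1% to 55.7%.

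The counts of calls moved mostly with the fold limit. With no fold limit, 5150 of all genes were higher and 5018 lower, and 6 of the family were higher and 1 lower (Mocs1). On that setting 5 flanking genes were higher and 10 lower, and 6 iron-sulfur genes were higher and 10 lower. Of the Nrf2 targets, 7 were higher and 7 lower. In the molybdenum cofactor list 5 genes were lower, beside 7 purine genes and 3 nicotinamide genes. With a limit of 2-fold, 1929 of all genes were higher and 1227 lower, 2 of the family were higher, 2 flanking genes were lower, 1 iron-sulfur gene was higher and 0 lower, 2 retinaldehyde genes were higher and 3 lower, 1 Nrf2 target was higher and 1 lower, and 1 purine gene was lower. In the molybdenum cofactor list the number that were lower was 4 with upper-quartile scaling and 4 without a filter on low counts. It was 1 with a minimum of 1 CPM in 3 samples. The fold changes of its genes Suox and Nfs1 lie near the limit (-0.57), and Marc1 has few counts.

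With each replicate left out in turn, 2880 to 3223 of all genes were higher and 2346 to 2509 lower. Of the family 4 to 5 were higher. In these fits 2 to 4 retinaldehyde genes were higher and 3 to 5 lower. For Nrf2 targets 1 to 2 were higher and 2 to 4 lower, and 3 to 4 nicotinamide genes were higher. In the molybdenum cofactor list 2 to 4 genes were lower, beside 2 to 5 iron-sulfur genes and 1 to 2 purine genes. DESeq2 called 3089 genes higher and 2460 lower. Conditions share replicate numbers, but nothing says that they mark a shared mouse or day, so the samples were not taken as pairs. Deviations of same-numbered samples from their condition's mean correlated at 0.14, 0.14 and 0.04 over 16207 genes. These values are weakly positive, and whether same-numbered samples share an origin was not tested. With the replicate number as a block, 3072 genes were higher and 2500 lower, with 4 of the family higher and 0 lower, and no count for the family, the flanking genes or the lists moved.

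The depth limits Aox2 (2 and 16 counts by condition) and the normoxic level of Aox4 (13 counts). The counting interval of the fold of Aox4, 81.7 to 263, leaves the spread between samples out of account.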
